A study of Homo sapiens with 6 samples.

Results

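The genes SFRP1, SFRP2, SFRP4, SFRP5, DKK1, DKK3 and WIF1 encode secreted antagonists of WNT signalling or relatives of them, and CpG methylation around their starts was examined in the PC-3 line, which was established from a human prostate carcinoma. A CpG was a member when it lay within 1.5 kb of one of the 7 gene starts on the hg19 build and was covered by at least 10 reads in at least 2 libraries of each group. This held for 176 CpGs of the 686608 in the genome that met the coverage rule, and the rule uses no methylation value. Genomic DNA was bisulfite sequenced from 3 libraries of cells given 160 µM S-adenosylmethionine (SAM) for 5 days and 3 libraries of cells given PBS as vehicle (control) for the same time. The labels do not say whether replicates were separate cultures, so p-values measure only the spread between these libraries, which may be technical.

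WNT ligands signal by binding a frizzled receptor together with the co-receptor LRP5 or LRP6. The secreted frizzled-related proteins (SFRPs) carry a frizzled-like cysteine-rich domain and bind WNT ligands outside the cell, WIF1 also binds WNT ligands, DKK1 binds LRP5 and LRP6, and DKK3 is a divergent dickkopf protein whose place in WNT signalling is less clear. Dense methylation of CpGs at the starts of several of these genes is well known in carcinomas, where it accompanies low expression, and SAM is the methyl donor of the DNA methyltransferases. The data hold no expression values.

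Each library listed positions with at least 10 reads, and total reads ranged over 36220663 to 179379782 in SAM libraries and 33056018 to 183523792 in control libraries. SAM replicate 2 and control replicate 2 were the shallowest. They covered 124 and 109 of the 176 member CpGs, against 175 or 176 in the other libraries. Median reads at the covered member CpGs were 93, 25.5 and 66 in SAM libraries 1 to 3, against 80, 47 and 105 in control libraries 1 to 3. All 6 libraries covered 71 of the member CpGs. By their relative read depth over the genome, the libraries were assigned to 2 coverage sets that cross the groups. These were SAM 1 with control 1 and 3, and SAM 2 and 3 with control 2. Correlations of centred log2 reads were 0.0316 to 0.851 inside the sets and -0.889 to -0.0385 between them. The sets were taken from these same depths, and centring over the libraries forces some correlations to be negative. The lowest value inside the sets and the highest between them were close, so the split is not sharp. Differences inside each set are given beside the pooled ones.

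The reference sequence from 250 bases before to 50 bases after the start is shown for 3 genes that span the range of levels at the start, from fully methylated to unmethylated. These are RefSeq sequences of GRCh38.p14, on the strand of the gene, and capitals mark each CG that was a member CpG. The hg19 CpGs were placed by the spacing between them, which put all 15, 10 and 7 CpGs that any library listed in the SFRP5, DKK1 and WIF1 sequences on a CG at 1 offset, while no other offset of up to 100 bases either way did so. The SFRP5 sequence is chr10:97771950-97772249 on the minus strand, the DKK1 sequence is chr10:52314031-52314330 on the plus strand, and the WIF1 sequence is chr12:65121256-65121555 on the minus strand.
SFRP5: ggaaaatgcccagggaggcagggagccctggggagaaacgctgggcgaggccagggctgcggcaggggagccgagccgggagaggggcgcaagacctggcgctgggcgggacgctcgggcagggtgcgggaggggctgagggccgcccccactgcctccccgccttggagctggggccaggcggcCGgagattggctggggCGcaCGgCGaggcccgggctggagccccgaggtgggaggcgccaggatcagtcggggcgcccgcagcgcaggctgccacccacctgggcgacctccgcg
DKK1: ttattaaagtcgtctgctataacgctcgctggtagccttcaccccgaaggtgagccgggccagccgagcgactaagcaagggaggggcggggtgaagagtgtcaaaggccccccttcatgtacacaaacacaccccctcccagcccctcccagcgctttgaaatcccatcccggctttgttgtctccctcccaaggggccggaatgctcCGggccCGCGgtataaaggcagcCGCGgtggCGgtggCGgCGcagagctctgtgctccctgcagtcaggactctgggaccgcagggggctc
WIF1: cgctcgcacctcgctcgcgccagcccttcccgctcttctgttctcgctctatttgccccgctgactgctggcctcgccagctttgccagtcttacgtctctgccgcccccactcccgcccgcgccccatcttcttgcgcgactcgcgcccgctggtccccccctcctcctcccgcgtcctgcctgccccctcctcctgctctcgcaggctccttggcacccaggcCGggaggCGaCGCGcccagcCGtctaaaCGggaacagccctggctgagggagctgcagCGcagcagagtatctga

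The 4 capital CGs of SFRP5 had mean levels of 100, 87.7, 100 and 99.86% over the libraries, in 5′ to 3′ order. In DKK1 the 8 capital CGs all lay between 0 and 0.846%, on both sides of a TATAAA motif. WIF1 was graded, with 39.4, 47.5, 14.9, 22.8, 27.1, 3.66 and 9.75% at its 7 capital CGs. TATAAA, searched on both strands, occurred in 1 copy in DKK1 and in none of the SFRP2, SFRP4, SFRP5 or WIF1 promoters in the table, and 11.5% of 35116 promoters of the same length held it. These 3 sequences hold 28, 20 and 29 CGs, against a median of 14 over all promoters. The SFRP2 and SFRP4 promoter sequences, which are not shown, hold 15 and 23. The WIF1 sequence was placed at an offset of -31 bases, so its distances below are counted from the hg19 start and not from the start of the sequence shown.

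Levels differed far more between and within the 7 windows than between the groups. Of the 176 member CpGs, 19.9% had a mean level under 20%, 38.6% lay at 20 to 80% and 41.5% lay over 80%. Over all 686608 CpGs the shares were 55.0%, 13.4% and 31.5%, so intermediate levels took a larger share of the members. The mean level was 60.8% over the member CpGs and 38.2% over all CpGs. These levels describe the positions the libraries reached, which lie in short runs and leave most of each window unread.

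**Figure D1:**
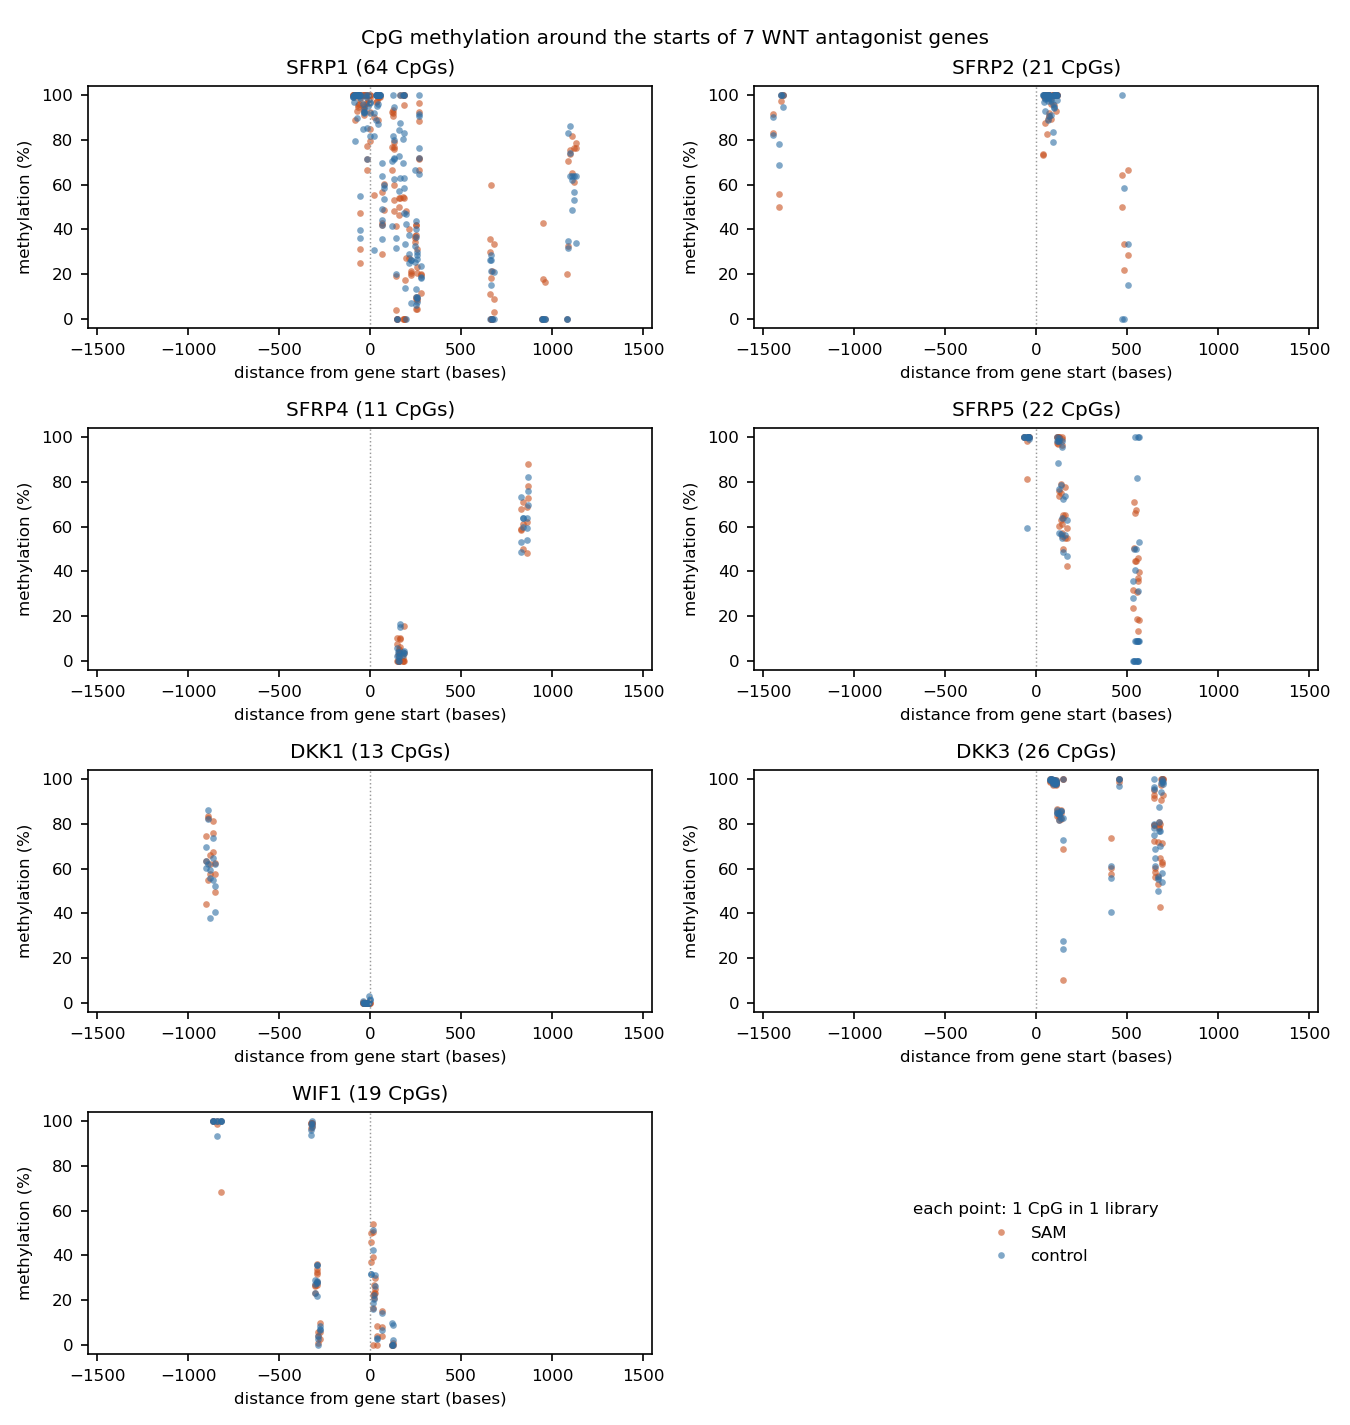
Methylation (%, vertical axis) of each member CpG in each library against its distance from the gene start in bases (horizontal axis, upstream negative), with SAM libraries in orange and control libraries in blue. SFRP2 and DKK3 sit near the top just after the start, DKK1 and SFRP4 near 0% close to the start and higher further off, and the colours are intermixed.

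No difference between SAM and control libraries passed the test at a member CpG. The quasi-binomial F test, a logistic model of methylated and unmethylated reads with a moderated overdispersion, called 0 of the 165 member CpGs that had both kinds of read at an adjusted p under 0.05, where 0% of the 490928 CpGs tested in the genome were called. On simulated data this test missed most changes of 20 points. A simulated shift of 40 points was picked up at 179 of 200 sites under counting noise alone. Once libraries varied as well, that fell to 70 of 200 sites, with 42 false calls. A count of 0 therefore does not show that levels were equal, even where differences of about 40 points are concerned. At an unadjusted p under 0.05, 17 member CpGs (10.3%) passed against 10.2% of all CpGs tested. The edgeR quasi-likelihood test and limma on log2 ratios also called 0 at an adjusted p under 0.05. At an unadjusted p under 0.05, edgeR had 3 of the 70 member CpGs it tested, against 7244 of 257696 CpGs in the genome. For limma it was 7 of 165 member CpGs, against 18045 of 490928. SAM had the higher mean at 86 member CpGs (48.9%) and the lower mean at 79 (44.9%), with equal means at 11. Over all CpGs SAM was higher at 36.8% and lower at 34.6%, with equal means at the rest. The median difference was 0 percentage points at the member CpGs, as it was over all CpGs. Among the 71 CpGs covered in all 6 libraries, the groups did not overlap at 5 (7.04%), against 4.9% of the 336571 such CpGs in the genome. SAM was higher at 2 of these 5 CpGs (2.7% of CpGs in the genome) and lower at 3 (2.19%).

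A model that counts every read as independent called many more CpGs. The logistic model with no overdispersion, in which spread between libraries does not enter, called 29 of the 165 member CpGs, 14 with SAM higher and 15 with SAM lower, which is 17.6% of the members against 22.2% of all CpGs. The median overdispersion, the variance relative to counting error alone, was 2.07 at member CpGs and 1.64 over all CpGs.

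Mean methylation of each window was compared over the CpGs that all 6 libraries covered, each CpG weighted equally. The test was an exact permutation test, two-sided, and its smallest p is 0.1 with 3 libraries against 3. The groups overlapped in all 6 windows that could be tested, where 9.4% of 28964 windows of 3 kb in the genome had groups that did not overlap. In the quasi-binomial test on summed reads, 0 of 28716 windows passed an adjusted p under 0.05 (0%), the member windows among them, and 6.29% had an unadjusted p under 0.05, none of them a member window. In order of level over these common CpGs, SFRP2 was at the top, followed by DKK3. SFRP1, SFRP4 and DKK1 came next and could not be ordered, since their library means overlapped, and WIF1 was lowest. The order depends on the CpGs taken, since the common ones leave out the unmethylated runs of DKK1 and SFRP4. Over the member CpGs covered in SAM 1 and 3 and control 1 and 3, DKK1 averaged 26.1% in SAM libraries and 22.8% in control libraries and SFRP4 28.8% in SAM libraries and 26.8% in control libraries, both below WIF1 at 39.8% in each group. There SFRP1 lay above them at 62.7% in SAM libraries and 62.3% in control libraries, and SFRP2 and DKK3 were highest, with library means that overlapped.

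**Figure D2:**
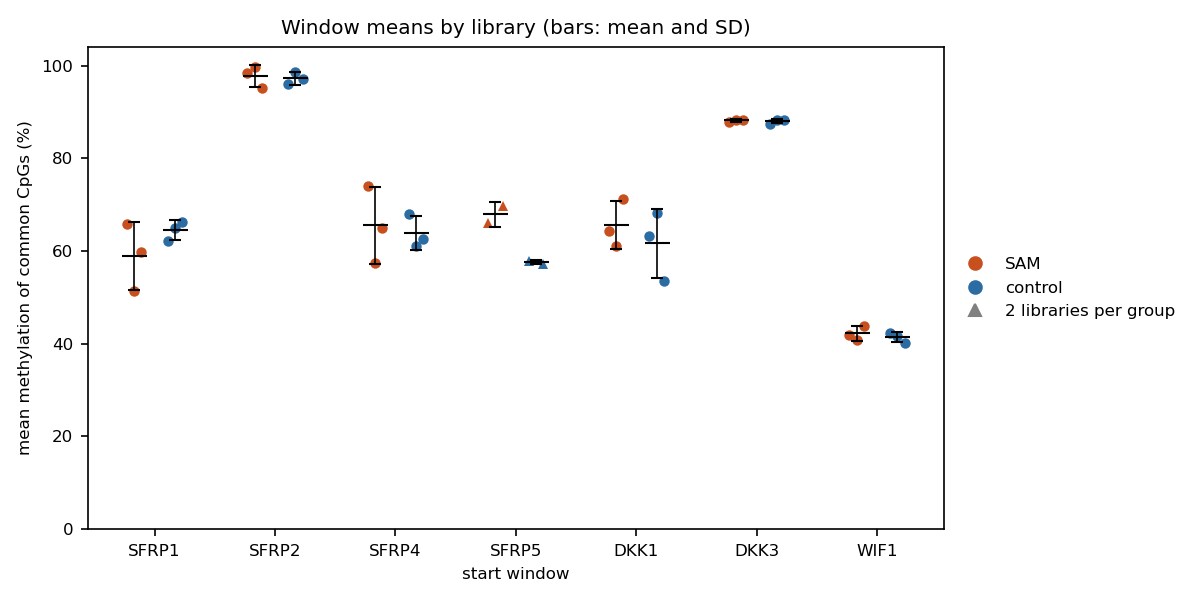
Mean methylation (%, vertical axis) of the common CpGs of each start window by library, with SAM in orange left of control in blue, and bars for the mean and SD of each group. SFRP5 (triangles) had no CpG covered in all 6 libraries and is shown for SAM 1 and 3 and control 1 and 3 only, and the groups overlap in the other 6 windows.

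The SFRP1 window (hg19 chr8:41165490-41168490, minus strand) held the most member CpGs, 64, and showed a methylated start next to a mixed region. The 27 CpGs from -92 to +75 bases of the start averaged 87.7% in SAM libraries and 88.2% in control libraries, taking the group means CpG by CpG. Further into the gene, the 23 CpGs from +120 to +281 averaged 44.2% in SAM libraries and 49.2% in control libraries. Levels were lower still at +656 to +682, where 5 CpGs averaged 14.8% in SAM libraries and 13.8% in control libraries. There the CpG at +665 had 0 methylated reads of 14, 10 and 27 in SAM libraries 1 to 3, which allows up to 21.4, 30 and 11.1%. Control libraries 1 and 3 had 21.4 and 26.3% on 14 and 19 reads. With only 5 libraries such a gap comes more easily than with 6, and no share over all CpGs was counted. The difference of -23.9 points did not pass (quasi-binomial test, adjusted p = 0.429). Methylation was intermediate at +1081 to +1131, with 59.3% in SAM libraries and 48.2% in control libraries over 6 CpGs.

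Between those runs, 3 SFRP1 CpGs at +945 to +958 were covered in 4 libraries and averaged 14.3 and 11.5% in SAM libraries 1 and 3, against 0% in both control libraries 1 and 3. The signal came mostly from +948, with 42.9 and 17.9% in the SAM libraries on 14 and 28 reads and 0 methylated reads of 28 and 21 in the control libraries, which allows up to 10.7 and 14.3%, taking 3 reads of the total as the limit that a count of 0 leaves. That difference of 30.4 points did not pass (quasi-binomial test, adjusted p = 0.447), and SAM replicate 2 and control replicate 2 gave no value there.

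Over the 23 SFRP1 CpGs common to all libraries, the mean was 65.9, 51.3 and 59.7% in SAM libraries 1 to 3, against 62.1, 64.9 and 66.3% in control libraries 1 to 3. SAM replicate 2 was the lowest library, and SAM replicate 1 lay inside the control range. The groups averaged 59.0% ± 7.31 in SAM libraries and 64.4% ± 2.17 in control libraries (SD, n = 3 each), a difference of -5.45 percentage points (standard error 4.40; exact permutation test, p = 0.3). Without SAM replicate 2 the difference was -1.62 points. Inside the coverage sets it was 1.71 points in the set of SAM 1 and -9.41 points in the set of SAM 2 and 3. At a minimum of 20 reads it was 0.225 points, and over the 62 CpGs covered in the other 4 libraries, without SAM 2 and control 2, it was 0.385 points. A larger absolute difference was seen in 7.29% of all 3 kb windows, and in 20.4% of the 2056 windows whose level lay within 10 points of SFRP1's.

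The largest difference at an SFRP1 CpG covered in all 6 libraries was at position 41166810, +180 bases from the start. Levels there were 100, 0 and 54.5% in SAM replicates 1 to 3, on 15, 11 and 22 reads, and 80.6, 69.6 and 100% in control libraries 1 to 3, on 36, 23 and 23 reads. SAM libraries spanned the whole range and enclosed the control libraries, so the difference of -31.9 points lay within the spread (quasi-binomial test, adjusted p = 0.618). SAM replicate 2 had 0 methylated reads of 11 at +180, +184 and +186 alike, which allows a level of up to 27.3% at each. The CpG with the smallest p, at position 41167058 (-68 bases), had 95.5, 100 and 94.8% in SAM libraries 1 to 3, against 100% in each control library. One SAM library equalled the controls there, and the difference of -3.24 points did not pass (quasi-binomial test, adjusted p = 0.424).

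At 2 of the 23 SFRP1 CpGs covered in all 6 libraries the groups did not overlap, in opposite directions, against 4.9% of such CpGs in the genome. At -92 bases SAM libraries were at 100% in each and control libraries at 99.6, 99.2 and 99.0%, a difference of 0.751 points. At +157 bases SAM libraries had 54.3, 50 and 46.7% and control libraries 57.3, 72.7 and 84.2%, a difference of -21.1 points on 94, 24 and 30 reads in SAM libraries and 150, 11 and 38 reads in control libraries. Neither passed (quasi-binomial test, adjusted p = 0.480 and 0.608).

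**Figure D3:**
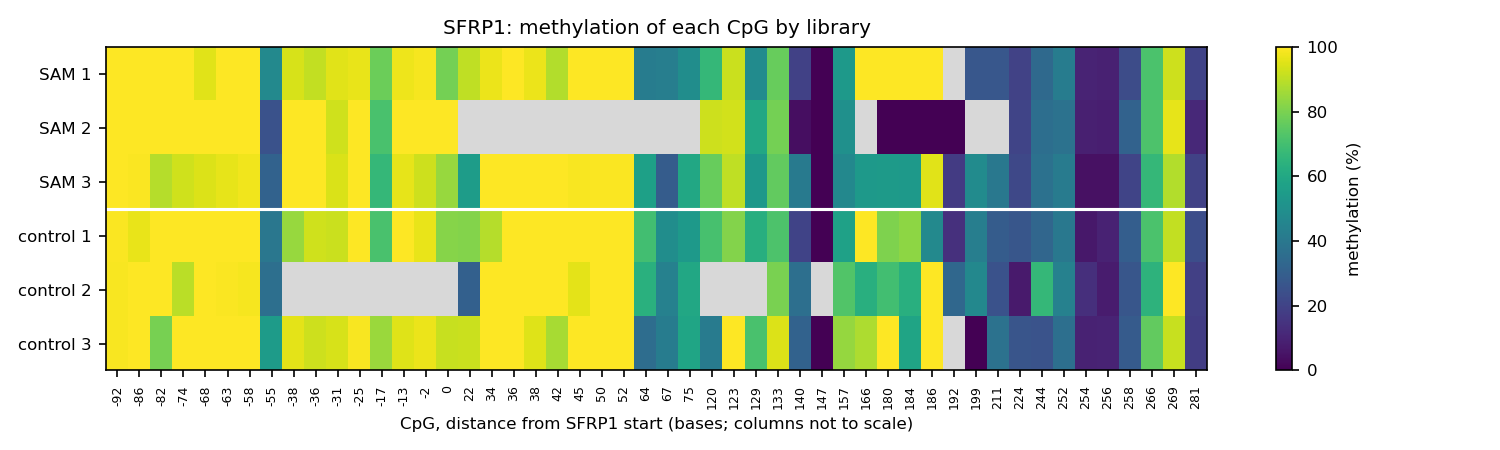
Methylation (%, colour scale) of each SFRP1 member CpG from -92 to +281 bases (columns, not to scale) in each library (rows, SAM above control), with grey for a CpG not covered by 10 reads. Single columns keep their colour down the rows, such as the dark column at +147 among lighter neighbours, while SAM 2 is dark at +180 to +186.

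Neighbouring SFRP1 CpGs kept sharply different levels in every library. At -58 bases the level was 100, 100 and 97.8% in SAM libraries and 100, 98.6 and 100% in control libraries. Only 3 bases nearer the start, at -55, it was 47.2, 25 and 31.2% in SAM libraries and 39.8, 36.4 and 55% in control libraries. Reads at -58 were 43, 68 and 774 in SAM libraries and 280, 148 and 148 in control libraries. At -55 they were 53, 16 and 96 in SAM libraries and 88, 33 and 100 in control libraries, so both levels rest partly on different reads. The drop was thus present in each library, and similar steps lay downstream. The CpG at +140 averaged 25.4% over the libraries beside 79.7% at +133, the CpG at +258 averaged 26.8% beside 70.5% at +266, and the CpG at +281 averaged 18.6% beside 93.2% at +269. At +147 none of 332 reads in 5 libraries was methylated, which allows a level of up to 0.904%.

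Such steps, over 30 points in the same direction in all 6 libraries between CpGs at most 20 bases apart, were seen at 6 of 58 member pairs (10.3%) and at 1.37% of 240689 pairs in the genome. Of the 6, 4 were in SFRP1, 1 was in DKK3 and 1 in WIF1. Among pairs with a CpG at 20 to 80%, 5 of 25 member pairs (20%) had such a step, against 6.05% of 39605 pairs in the genome. These shares describe pairs that overlap and can share reads, so no test was made. The part that sequence differences or read placement play in them was not tested. Across the 23 common SFRP1 CpGs, which share reads and libraries, Pearson's r between pairs of libraries ran from 0.613 to 0.961.

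SFRP2 (hg19 chr4:154708728-154711728, minus strand) was almost fully methylated just inside the gene. Its 14 CpGs from +37 to +112 bases averaged 96.0% in SAM libraries and 97.4% in control libraries. Over the 13 CpGs common to all libraries the mean was 98.3, 99.7 and 95.2% in SAM libraries 1 to 3, against 96.0, 98.6 and 97.0% in control libraries 1 to 3. SAM libraries held both the highest and the lowest value. The group means were 97.7% ± 2.32 in SAM libraries and 97.2% ± 1.31 in control libraries (SD, n = 3 each), a difference of 0.507 points (standard error 1.54; exact permutation test, p = 0.8). It was 1.82 points in the coverage set of SAM 1 and -1.20 points in that of SAM 2 and 3, and -0.474 points without SAM replicate 2.

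One SFRP2 CpG, at position 154710138 (+90 bases), gave the smallest p of its window and the largest difference among the CpGs covered in all 6 libraries. SAM libraries were at 100% in each, on 13, 50 and 185 reads, and control libraries had 79.1, 96.2 and 83.3% on 86, 52 and 36 reads. The groups did not overlap, at 1 of the 13 SFRP2 CpGs covered in all 6 libraries, against 4.9% of such CpGs in the genome. The difference of 13.8 points did not pass over all CpGs (quasi-binomial test, adjusted p = 0.424). The CpGs on either side were near the ceiling in both groups. At +82 bases the means were 94.6% in SAM libraries and 95.5% in control libraries, and at +98 bases they were 98.5% and 96.2% in the same order of groups. The largest SFRP2 difference at a member CpG was at +37 bases, covered in 4 libraries, with 73.7 and 73.2% in SAM libraries 1 and 3, on 19 and 56 reads, and 100% in both control libraries 1 and 3, on 24 and 12 reads. These values did not overlap, but with only 4 libraries that comes easily, and no share over all CpGs was counted for such coverage. The difference of -26.6 points did not pass (quasi-binomial test, adjusted p = 0.432). Away from the start, 3 CpGs at +472 to +507 bases averaged 44.1% in SAM libraries and 34.5% in control libraries, and single control libraries there reached 5.13% and 63.9%.

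SFRP4 (hg19 chr7:37955025-37958025, minus strand) was nearly unmethylated at its CpGs closest to the start, while SFRP1, SFRP2 and SFRP5 were mostly methylated at theirs. Its 7 CpGs from +147 to +188 bases averaged 4.85, 0.893 and 6.06% in SAM libraries 1 to 3, against 5.31 and 4.18% in control replicates 1 and 3, and control replicate 2 did not cover them. The smallest p of the window was in this run, at position 37956361 (+164 bases), with 10.1, 6.25 and 10.5% in SAM libraries and 15 and 16.5% in the 2 control libraries. These values did not overlap, but with only 5 libraries that comes more easily than with 6, and no share over all CpGs was counted for such coverage. The difference of -6.79 points did not pass (quasi-binomial test, adjusted p = 0.577).

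Further into SFRP4, 4 CpGs from +826 to +868 bases were intermediate. Their mean was 74.0, 57.5 and 65.0% in SAM libraries 1 to 3, against 68.0, 61.2 and 62.6% in control libraries 1 to 3. SAM libraries again spanned a wider range than control libraries. The means of 65.5% ± 8.28 in SAM libraries and 63.9% ± 3.63 in control libraries (SD, n = 3 each) differed by 1.57 points (standard error 5.22; exact permutation test, p = 0.8). Without SAM replicate 1 the difference was -2.68 points. It was 8.69 points in the coverage set of SAM 1 and 0.0791 points in that of SAM 2 and 3. The largest difference at a common CpG was 3.79 points at position 37955657 (+868 bases), with 79.8% ± 7.74 in SAM libraries and 76.0% ± 6.15 in control libraries (SD, n = 3 each; quasi-binomial test, adjusted p = 0.694).

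SFRP5 (hg19 chr10:99530256-99533256, minus strand) had 22 member CpGs and no CpG covered in all 6 libraries, so its window has no test over 6 libraries. The 4 CpGs in capitals in the sequence above, from -64 to -41 bases, averaged 97.4% in SAM libraries and 96.5% in control libraries. Levels alternated in the run from +114 to +170 bases, with single CpGs at 53.3 to 99.2%. There SAM replicates 1 to 3 averaged 78.9, 75.4 and 77.8% and control replicates 1 and 3 averaged 72.1 and 80.5% over 10 CpGs. The SAM values lay inside the control range.

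The last run of 8 SFRP5 CpGs, from +534 to +565 bases, carried the widest spread between libraries of the 3 SFRP5 runs. It averaged 35.1 and 45.0% in SAM replicates 1 and 3 and 19.1, 64.7 and 6.82% in control libraries 1 to 3. The control libraries lay on both sides of the SAM libraries, and control replicates 2 and 3 rested on 14 reads or fewer per CpG. The smallest p of the window was here, at position 99531196 (+560 bases), with 45.9 and 35.9% in SAM replicates 1 and 3 and 0, 0 and 9.09% in control libraries 1 to 3. Reads were 37 and 78 in the SAM libraries and 32, 14 and 11 in the control libraries, so the 0 values allow up to 9.38% in control replicate 1 and 21.4% in control replicate 2. At +539 and +550 SAM libraries were likewise higher on average, with 60.9 and 56.1%, against 16.7 and 19.7% in control libraries, but control replicate 2 had 50% at both. The difference of 37.9 points at +560 did not pass (quasi-binomial test, adjusted p = 0.424). Just 2 bases further, at +562, the difference had the opposite sign, -21.4 points.

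Over its 22 CpGs the SFRP5 difference was 4.23 points when group means were taken CpG by CpG. In the 4 libraries that covered all 22, SAM replicates 1 and 3 had means of 66.0 and 69.8% and control replicates 1 and 3 had 57.9 and 57.2%. Both SAM libraries lay above both control libraries, by 10.3 points on average (exact permutation test, p = 0.333, the smallest that 2 libraries against 2 allow). Control replicate 2, which is not among these 4, was the highest control library at +534 to +565. In the coverage set of SAM 1 and control 1 and 3 the difference was 8.43 points over the 22 CpGs. In the other set SAM 2 and control 2 shared no CpG, which leaves SAM 3 against control 2 over 12 CpGs, with 63.1% in SAM 3 and 73.1% in control 2. That is a difference of -9.93 points between 1 library and 1 library over other CpGs, and it cannot be set against the 8.43 points.

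WIF1 (hg19 chr12:65513616-65516616, minus strand) was high at its CpGs furthest upstream and lower nearer its start, but not in a steady fall. Its 3 CpGs from -864 to -819 bases averaged 94.5% in SAM libraries and 99.3% in control libraries. The 7 CpGs from -327 to -278 ranged over 2.97 to 98.7%, with mean levels over the libraries of 2.97% at -284 and 6.79% at -278. At the start itself the level was higher again, with 39.4% at +7 and 47.5% at +14. The 7 in capitals in the sequence above, from +7 to +65, averaged 24.0% in SAM libraries and 22.9% in control libraries. At +121 and +127 the level was 0.231% in SAM libraries and 3.55% in control libraries. In the last run the control mean rested on control replicate 1, at 9.49%, since the other covering libraries lay at 1.15% or below.

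The 7 WIF1 CpGs from -327 to -278 were the ones common to all libraries. They averaged 41.9, 40.9 and 43.9% in SAM libraries 1 to 3, against 42.4, 41.7 and 40.2% in control libraries 1 to 3. The libraries lay within a narrow range and the groups overlapped. The means were 42.2% ± 1.52 in SAM libraries and 41.5% ± 1.11 in control libraries (SD, n = 3 each), a difference of 0.742 points (standard error 1.09; exact permutation test, p = 0.5). It was 0.548 and 0.640 points in the coverage sets of SAM 1 and of SAM 2 and 3. Without SAM replicate 3 it was -0.0876 points. Across these 7 CpGs which share libraries and mostly reads, Pearson's r between pairs of libraries was 0.994 or more.

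The step inside this run lay between -322 and -303 bases. At -322 WIF1 was at 99.2, 99.1 and 97.8% in SAM libraries and 97.2, 100 and 98.7% in control libraries. At -303 it was at 26.6, 23.1 and 26.5% in SAM libraries and 28.9, 27.5 and 23.1% in control libraries. Both groups thus held the same step in each library. The largest WIF1 difference at a common CpG was 3.61 points at position 65515406 (-290 bases), with 29.7% ± 3.58 in SAM libraries and 26.1% ± 3.65 in control libraries (SD, n = 3 each; quasi-binomial test, adjusted p = 0.564). The smallest p was at position 65515935 (-819 bases), where SAM replicate 1 had 68.2% on 22 reads and the other 4 covering libraries had 100% (quasi-binomial test, adjusted p = 0.563).

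DKK1 (hg19 chr10:54072541-54075541, plus strand) was unmethylated at its start and intermediate upstream. The 8 CpGs in capitals in the sequence above, from -41 to -1 bases, averaged 0.0394% in SAM libraries and 0.482% in control libraries. Of these, 4 had 0 methylated reads in each of the 5 libraries that covered them, and the fewest reads at any of the 4 was 678, which allows up to 0.442%. Control replicate 2 covered none of these 8 CpGs with 10 reads.

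The 5 DKK1 CpGs from -901 to -852 bases were the common ones. They averaged 64.2, 61.1 and 71.3% in SAM libraries 1 to 3, against 63.3, 68.1 and 53.6% in control libraries 1 to 3. Control replicate 3 was the lowest library and SAM replicate 3 the highest, and the others were mixed. The group means were 65.5% ± 5.23 in SAM libraries and 61.7% ± 7.40 in control libraries (SD, n = 3 each), a difference of 3.88 points (standard error 5.23; exact permutation test, p = 0.5). Without control replicate 3 it was -0.152 points. In the coverage set of SAM 1 it was 5.81 points and in that of SAM 2 and 3 it was -1.94 points.

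Both named DKK1 CpGs were in this upstream run and were deeply read. At position 54073164 (-877 bases) SAM libraries had 57.5, 62.2 and 66.1% on 339, 241 and 982 reads, and control libraries had 59.3, 55.7 and 37.9% on 526, 300 and 767 reads. At position 54073178 (-863 bases) SAM libraries had 67.3, 81.3 and 75.9% and control libraries had 64.8, 73.9 and 55.1%. The groups overlapped at both CpGs, and control replicate 3 was the lowest library at both. Differences were 10.98 points at -877 and 10.2 points at -863 (quasi-binomial test, adjusted p = 0.476 and 0.466). At -901 and -891, further upstream, the SAM means were below the control means, with differences of -3.69 and -2.95 points.

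DKK3 (hg19 chr11:12029417-12032417, minus strand) was highly methylated and held the most deeply read member CpGs. Its 14 CpGs from +77 to +149 bases averaged 91.6% in SAM libraries and 90.9% in control libraries, and its 10 CpGs from +645 to +699 averaged 79.0% in SAM libraries and 79.9% in control libraries. Reads reached 4633 in SAM libraries and 6759 in control libraries at single CpGs. Over 19 common CpGs the mean was 87.9, 88.4 and 88.2% in SAM libraries 1 to 3, against 87.5, 88.3 and 88.2% in control libraries 1 to 3. The libraries lay within 1 point of each other.

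The DKK3 means of 88.2% ± 0.239 in SAM libraries and 88.0% ± 0.463 in control libraries (SD, n = 3 each) differed by 0.172 points (standard error 0.301; exact permutation test, p = 0.6). It was 0.0873 points in the coverage set of SAM 1 and -0.0521 points in that of SAM 2 and 3, and -0.0896 points without control replicate 1. The smallest p was at position 12030812 (+105 bases), with 98.6% ± 0.0720 in SAM libraries and 98.2% ± 0.312 in control libraries (SD, n = 3 each), a difference of 0.394 points (quasi-binomial test, adjusted p = 0.479). The largest difference at a common CpG was at position 12030506 (+411 bases), with 60.4, 73.7 and 57.4% in SAM libraries and 40.4, 55.7 and 61.3% in control libraries. The groups overlapped there, and the difference of 11.3 points did not pass (quasi-binomial test, adjusted p = 0.766).

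Groups did not overlap at 2 of the 19 DKK3 CpGs covered in all 6 libraries, against 4.9% of such CpGs in the genome. The 2 were neighbours, and both were lower in SAM libraries. At +649 SAM libraries had 95.2, 92.7 and 91.5% and control libraries had 96.3, 100 and 95.7%. At +655 SAM libraries had 60.4, 56.4 and 58.7% and control libraries had 64.8, 68.8 and 61.0%. The gaps between the nearest libraries of the groups were small, and the differences of -4.20 and -6.36 points did not pass (quasi-binomial test, adjusted p = 0.640 and 0.686). Both are 6 bases apart and can share reads, so they are not 2 separate observations.

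**Figure D4:**
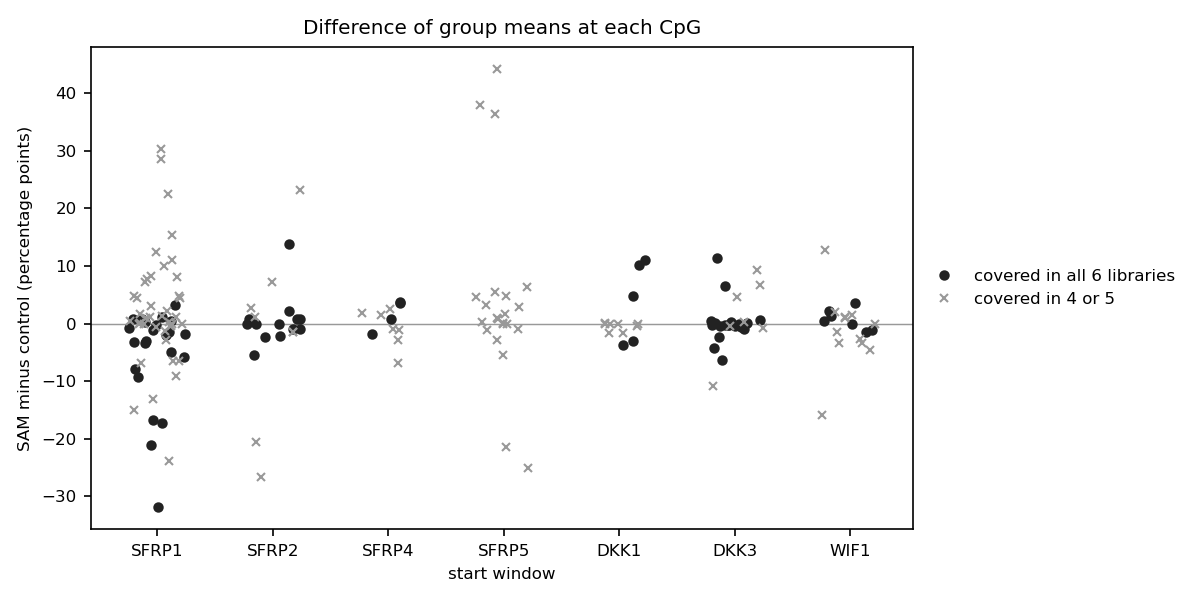
Difference of group means (SAM minus control, percentage points, vertical axis) at each member CpG by window, with filled circles for CpGs covered in all 6 libraries and crosses for those covered in 4 or 5. Circles mostly lie near 0, with SFRP1 reaching -31.9 points, and the 3 highest crosses are the SFRP5 CpGs at +539, +550 and +560.

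By window, SAM had the higher mean at 32 of 64 SFRP1 CpGs, 9 of 21 in SFRP2, 6 of 11 in SFRP4, 14 of 22 in SFRP5, 10 of 19 in WIF1, 4 of 13 in DKK1 and 11 of 26 in DKK3. Over all CpGs in the genome SAM had the higher mean at 36.8% and the lower mean at 34.6%. Median differences ranged from -0.191 points in DKK3 to 0.851 points in SFRP5. The 17 CpGs at an unadjusted p under 0.05 were spread over SFRP1 (7), SFRP2 (4), SFRP5 (3), DKK1 (2) and DKK3 (1). No molecular identifiers are given, so amplification copies may be among the reads, and read numbers and the limits drawn from them cover counting error only.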

How the data were processed

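The deposited lists give, per the file headers, each cytosine's position and strand, its coverage (a read count), and the percent that read C and T. The tools, per the submitters' processing notes, which give them no role or order, were CASAVA 1.8.2, FastQC 0.10.0, Bismark 0.7.4 and methylKit 0.5.3, with hg19 as the build. The sources used here do not give the library type, read filters or duplicate removal. The members and gene list were chosen with earlier results of these data known.

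Methylated counts were recovered as coverage times percent C, and the minus-strand C was joined to the plus-strand C 1 base before it. A quasi-binomial F test (overdispersion moderated as in limma's squeezeVar, with a floor of 1) was fitted to all CpGs, and to reads summed over all 3 kb windows with at least 3 common CpGs, with Benjamini-Hochberg adjustment. Window means were compared by exact permutation. In each window the CpG with the smallest p and the common CpG with the largest absolute difference were named; other CpGs given with values, such as those whose groups do not overlap and those beside a step, were chosen after their values were seen. Tested on simulated data, the F test kept its error rate with counting noise alone but gave too many small unadjusted p-values once libraries varied. It missed most CpGs changed by 20 points with counting noise alone and nearly all of them once libraries varied. For shifts of 40 points it found most with counting noise alone but missed most once libraries varied. The simulated spread was below that estimated from these data, and only CpGs of intermediate level were changed. After the simulations were seen, the requirement on recovery was kept at 40 points only. A weighted form and a trended prior were also added after seeing them. Replicate numbers were checked for pairing, and deviations of equal numbers from their group means correlated at -0.00509, 0.00846 and -0.00791. Counting noise can mask a pairing in such a check, so it cannot exclude a shared culture or batch. SAM replicate 2 and control replicate 2 were both the shallowest of their groups. The main tests treat the libraries as unpaired. No hg19 annotation was used here, so other pathway genes were not counted. Alternatives were edgeR 4.0.16 and limma 3.58.1 (R 4.3.3), a logistic model, a minimum of 20 reads and others given below. Python 3.11.15, numpy 2.4.6, pandas 2.3.3, scipy 1.17.1 and matplotlib 3.10.9 were used.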

Additional observations from a re-analysis of the deposited data

How the results depend on the processing

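The count of member CpGs past the threshold was 0 under every alternative run except the logistic model with no overdispersion, which called 29 CpGs and, among 3 kb windows, 12561 of 28716, those of SFRP1, SFRP2, DKK1 and DKK3 included. Leaving out each library in turn gave 0 CpGs and 0 windows each time. The 17 of 165 member CpGs at an unadjusted p under 0.05 became 1 with weights for the correlation of reads within a library, against 3785 of 490928 in the genome. They stayed 17 in number with a trended prior, against 49357 in the genome. Both forms were chosen after seeing the data. With a coverage set term there were 5 of 165, against 27346 of 490078 in the genome. On simulated data the fit with that term recovered at most 4 of 200 changed CpGs, so its 0 calls say little. With the replicate block there were 3 of 163, against 19670 of 476378. When each library was left out there were 5 to 19. The 5 came without SAM replicate 3 (24910 of 462576 in the genome) and the 19 without control replicate 2 (46524 of 480819). Signs of the window differences were not stable, with 26 of 127 alternatives turning the sign, 3 of these in SFRP5. The cause was not tested. Some of the 127 left the value as it was, such as that without extreme coverage and, outside SFRP5, the replicate block. Leaving out each library gave -8.90 to -1.62 points for SFRP1, -0.474 to 1.79 for SFRP2, -2.68 to 5.59 for SFRP4, 0.607 to 9.89 for SFRP5, -0.152 to 7.12 for DKK1, -0.0896 to 0.350 for DKK3 and -0.0876 to 1.41 for WIF1. A minimum of 20 reads gave 0.225 points for SFRP1, -0.985 for SFRP2 and -0.465 for DKK3. Weighting by reads gave -0.326 for SFRP2 and -4.25 for SFRP5, and the plus strand alone -0.148 for DKK3. Averaging each library over its own CpGs, which differ between libraries, gave -0.0505 for SFRP2, -11.9 for SFRP4, -11.2 for DKK1 and -5.85 for WIF1. Control replicate 2 covered 4 of 11 SFRP4 CpGs and 5 of 13 DKK1 CpGs, all in the intermediate runs. Group means taken CpG by CpG, an alternative chosen after seeing the data, gave 0.0513 for SFRP4 and 1.22 for DKK1. Of alternatives chosen after seeing the data, group means taken CpG by CpG gave -0.435 for SFRP2 and -0.402 for WIF1, and CpGs of the 4 libraries other than SAM 2 and control 2 gave 0.385 for SFRP1 and -0.607 for SFRP2. The coverage set of SAM 1 gave 1.71 for SFRP1, and that of SAM 2 and 3 gave -1.20 for SFRP2, -1.94 for DKK1, -0.0521 for DKK3 and, for SAM 3 against control 2 alone, -9.93 for SFRP5. The mean of both sets was -0.748 for SFRP5, but it joins 8.43 and -9.93 points, which were taken over different CpGs. Its sign and that of the -9.93 points therefore cannot be read as a change from the main difference. The SFRP4 CpG at 37955657 ranged over -0.413 to 7.21 points when each library was left out, with the sign turned without SAM replicate 1. With the replicate number as a block, 0 CpGs and 0 windows passed, in a fit that recovered no changed CpG on simulated data. Outside SFRP5 the window differences of the block equal the main ones by construction. They were -5.45 for SFRP1, 0.507 for SFRP2, 1.57 for SFRP4, 10.3 for SFRP5 (pairs 1 and 3), 3.88 for DKK1, 0.172 for DKK3 and 0.742 for WIF1. Depth limits SFRP5 most, where SAM replicate 2 and control replicate 2 shared no CpG at 10 reads.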
